A study of Mus musculus with 12 samples.

Results

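The blood-brain barrier genes described here are 10 transcripts of brain endothelium, chosen by name for their part in its junctions and transport. They are the junction and adhesion genes Cldn5, Ocln, Cdh5 and Esam, and the transporter genes Mfsd2a, Slco1c1, Slco1a4, Abcb1a, Abcg2 and Slc2a1. The array holds 13 probes with these names among 41174 transcript probes. Probes were kept if every one of the 3 arrays in some group showed them well above background, which 12 of the 13 and 27683 of all probes did. The kept probes cover all 10 genes, and the one left out is a second probe of Ocln, above background on 1 LPS 24 h array and on no other.

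RNA was measured in whole hippocampus of 12-week-old male C57BL/6N mice on 12 one-colour arrays, in 4 groups of 3: tissue taken 24 h or 4 h after LPS, and tissue taken 24 h or 4 h after saline. Every mouse, the saline ones too, had received 50 nl of 20 mM kainate into the left dorsal hippocampus and was studied 3 weeks later, so the baseline is a hippocampus with kainate-induced recurrent seizures. LPS (lipopolysaccharide, a cell wall component of Gram-negative bacteria, here from Salmonella enterica abortus equi) was given into the peritoneum at 100 µg/kg, and tissue was taken 4 or 24 h after LPS or saline. No kainate-free group was analysed here, and the labels do not say which hippocampus was taken. The labels give 3 samples a group, and nothing else says that they come from separate animals. The p-values therefore test group differences against the spread between these samples within groups, pooled over the 4 groups.

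The blood-brain barrier is formed by endothelial cells that line the brain's capillaries and are sealed to each other by tight junctions. Claudin-5 (Cldn5) forms the strands of those junctions, occludin (Ocln) is a second membrane protein in them, vascular endothelial cadherin (Cdh5) holds the adherens junction beneath, and Esam is an immunoglobulin-like adhesion molecule at the same contacts. Because few solutes cross between the cells, transport goes through carriers. Slc2a1 carries glucose, Mfsd2a carries lipids with docosahexaenoic acid and restrains vesicle traffic across the cell, Slco1c1 carries thyroid hormone, and Slco1a4 carries organic anions. Abcb1a (P-glycoprotein) and Abcg2 (breast cancer resistance protein) pump drugs and other foreign compounds back into blood. Several of these genes are also used outside endothelium, Slc2a1 and Slco1c1 in astrocytes or choroid plexus for example. In RNA from whole tissue, fewer cells of a type and less RNA per cell cannot be told apart.

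The promoters of Cldn5, Slco1a4 and Slco1c1 are shown because these 3 genes fell most at 4 h among those measurable there. RefSeq windows from 250 bases before to 50 after the start, on build GRCm38.p6, were held for 8 of the 10 genes, in 11 windows. Each was searched on both strands for 4 motifs bound by factors of endothelial development: CTTTGAT (TCF/LEF, the end point of WNT signalling), AACAAAG (SOX), GTAAACA (FOX) and CAGGAAG (ETS). The windows of Cldn5 (chr16:18776597-18776896, plus strand) and Slco1a4 (chr6:141856171-141856470, minus strand) held none of these letters, and the window of Slco1c1 (chr6:141524104-141524403, plus strand) held the SOX motif at -140 and again at 6 from the start, in capitals here.
Cldn5: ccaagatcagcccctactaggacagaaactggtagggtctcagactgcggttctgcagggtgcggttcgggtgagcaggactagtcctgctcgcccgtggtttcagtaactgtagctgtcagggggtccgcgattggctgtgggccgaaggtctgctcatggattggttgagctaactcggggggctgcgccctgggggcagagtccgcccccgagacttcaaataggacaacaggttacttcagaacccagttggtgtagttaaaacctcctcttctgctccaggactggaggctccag
Slco1a4: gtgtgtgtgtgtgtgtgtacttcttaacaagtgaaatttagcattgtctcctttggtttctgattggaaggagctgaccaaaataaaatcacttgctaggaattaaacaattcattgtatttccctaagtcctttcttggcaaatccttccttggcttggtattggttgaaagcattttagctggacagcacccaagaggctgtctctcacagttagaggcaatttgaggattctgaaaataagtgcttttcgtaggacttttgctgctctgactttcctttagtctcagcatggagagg
Slco1c1: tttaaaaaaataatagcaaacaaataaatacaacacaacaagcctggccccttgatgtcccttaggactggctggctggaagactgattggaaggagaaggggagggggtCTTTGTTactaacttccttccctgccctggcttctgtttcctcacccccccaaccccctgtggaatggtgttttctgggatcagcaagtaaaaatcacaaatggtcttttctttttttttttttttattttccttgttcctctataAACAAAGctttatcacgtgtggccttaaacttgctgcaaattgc
Of the 32851 full-length windows used for comparison, which left out a chromosome, 5.85% held the SOX letters, 3.73% the TCF/LEF letters, 3.65% the FOX letters and 13.3% the ETS letters. Among the other windows searched, Abcb1a held the FOX motif at -20, and Abcg2 held the ETS motif in 2 of its 3 windows. These matches are letters in a window and were not tied to any measurement.

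The probes are 60 bases long, and the files place them on build mm9. Cldn5 was read at 18778046 to 18778105 on chromosome 16, Ocln at 101268114 to 101268173 on chromosome 13, and Esam at 37345544 to 37345603 on chromosome 9. Cdh5 was read by a probe at 106668159 to 106668218 on chromosome 8 (A_52_P248604) and by a second at 106667499 to 106667558 (A_51_P309056). On chromosome 6, Slco1a4 was read at 141754675 to 141754734 and Slco1c1 across 141511731 to 141513094, a span longer than the probe, so the Slco1c1 probe crosses at least 1 exon junction. Mfsd2a lay at 122624182 to 122624241 and Slc2a1 at 118809864 to 118809923 on chromosome 4, and Abcb1a at 8747979 to 8748038 on chromosome 5. Whether a probe lies in coding sequence or in a UTR was not annotated in the sources used here. The Abcg2 probes are shown because they read separate stretches of 1 transcript and can be set beside each other. Both cross exon junctions of chromosome 6, at 58640579 to 58642261 (A_51_P184886) and 58628344 to 58633274 (A_52_P336142).
Abcg2 (A_51_P184886): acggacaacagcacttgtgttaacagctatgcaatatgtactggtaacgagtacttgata
Abcg2 (A_52_P336142): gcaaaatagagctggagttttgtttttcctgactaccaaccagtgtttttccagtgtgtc

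Levels are log2 processed intensities relative to the 75th percentile of the same array, so a level of 0 equals that percentile, and levels of different probes are not set against each other. The saline 4 h arrays stood apart in brightness: their 75th percentile was 352 to 376 intensity units, whereas the LPS 24 h arrays had 687 to 903, the LPS 4 h arrays 633 to 700 and the saline 24 h arrays 711 to 832. On average 69.7% of probes were well above background for LPS 24 h, 59.6% for LPS 4 h, 65.6% for saline 24 h and 54.6% for saline 4 h. The arrays filled 6 slides, each with 1 LPS and 1 saline array of the same time. The 24 h and 4 h arrays were scanned in 2 separate sessions, so time after injection and scan session cannot be told apart. For these reasons the 4 h values of the barrier probes, of the related genes named and of the gene lists are also given against saline 24 h. The 24 h counts of the lists are also given against saline 4 h. All 9 neuronal and all 13 astrocyte markers looked up were above background.

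The first comparison asks how the barrier genes stood 4 h after LPS. Cldn5 was 8.47-fold lower and Slco1a4 2.88-fold lower after LPS than after saline, while Cdh5 was 2.05-fold higher. Slco1c1, Esam and Slc2a1 were lower by smaller amounts, and Mfsd2a, Ocln and 1 of the 2 Abcg2 probes did not pass the test. Of 11 probes measurable at 4 h, 2 were higher and 6 lower at an adjusted p under 0.05 (limma, Benjamini-Hochberg over 27683 probes), where 31.6% of all probes were higher and 39.4% lower (71% in all). The share of barrier probes called, 8 of 11, was thus near that of all probes, and nothing is read from the count. The median log2 difference was -0.10 over the 11 probes and -0.08 over all probes tested. Across the background corrections and scalings tried, the median of the 11 barrier probes ran from -0.27 to 0.0054, with 1 to 3 higher and 4 to 8 lower.

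Cldn5 had levels of 1.71, 1.75 and 1.57 in the LPS 4 h arrays, against 4.74, 4.79 and 4.75 in the saline 4 h arrays. All 3 LPS arrays were far below all saline arrays, by a difference of -3.08 ± 0.07 (log2, SE, adjusted p = 4.05e-10 in limma). Cldn5 ranked 6 from the lowest of 27683 probes by this difference. Against saline 24 h, where Cldn5 had levels of 3.55, 3.71 and 3.58, the LPS 4 h arrays were lower by less, at -1.93 ± 0.07 (adjusted p = 4.80e-09).

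Slco1a4, the organic anion carrier, had levels of -1.73, -1.61 and -1.80 in LPS 4 h and of -0.23, -0.21 and -0.12 in saline 4 h. The groups did not overlap, and the difference of -1.53 ± 0.06 (adjusted p = 1.40e-08) placed the gene 279 from the lowest of all probes. It was also lower in LPS 4 h than in saline 24 h, by -1.84 ± 0.06 (adjusted p = 3.64e-09). The related thyroid hormone carrier Slco1c1 had levels of 1.36, 1.38 and 1.41 in LPS 4 h and of 1.99, 2.04 and 2.01 in saline 4 h. Its difference was smaller, at -0.63 ± 0.03 (adjusted p = 7.44e-08), with no overlap, and it was -0.36 ± 0.03 against saline 24 h (adjusted p = 4.04e-06). Cldn5, Slco1a4 and Slco1c1 were therefore below the saline arrays of both times.

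**Figure D1:**
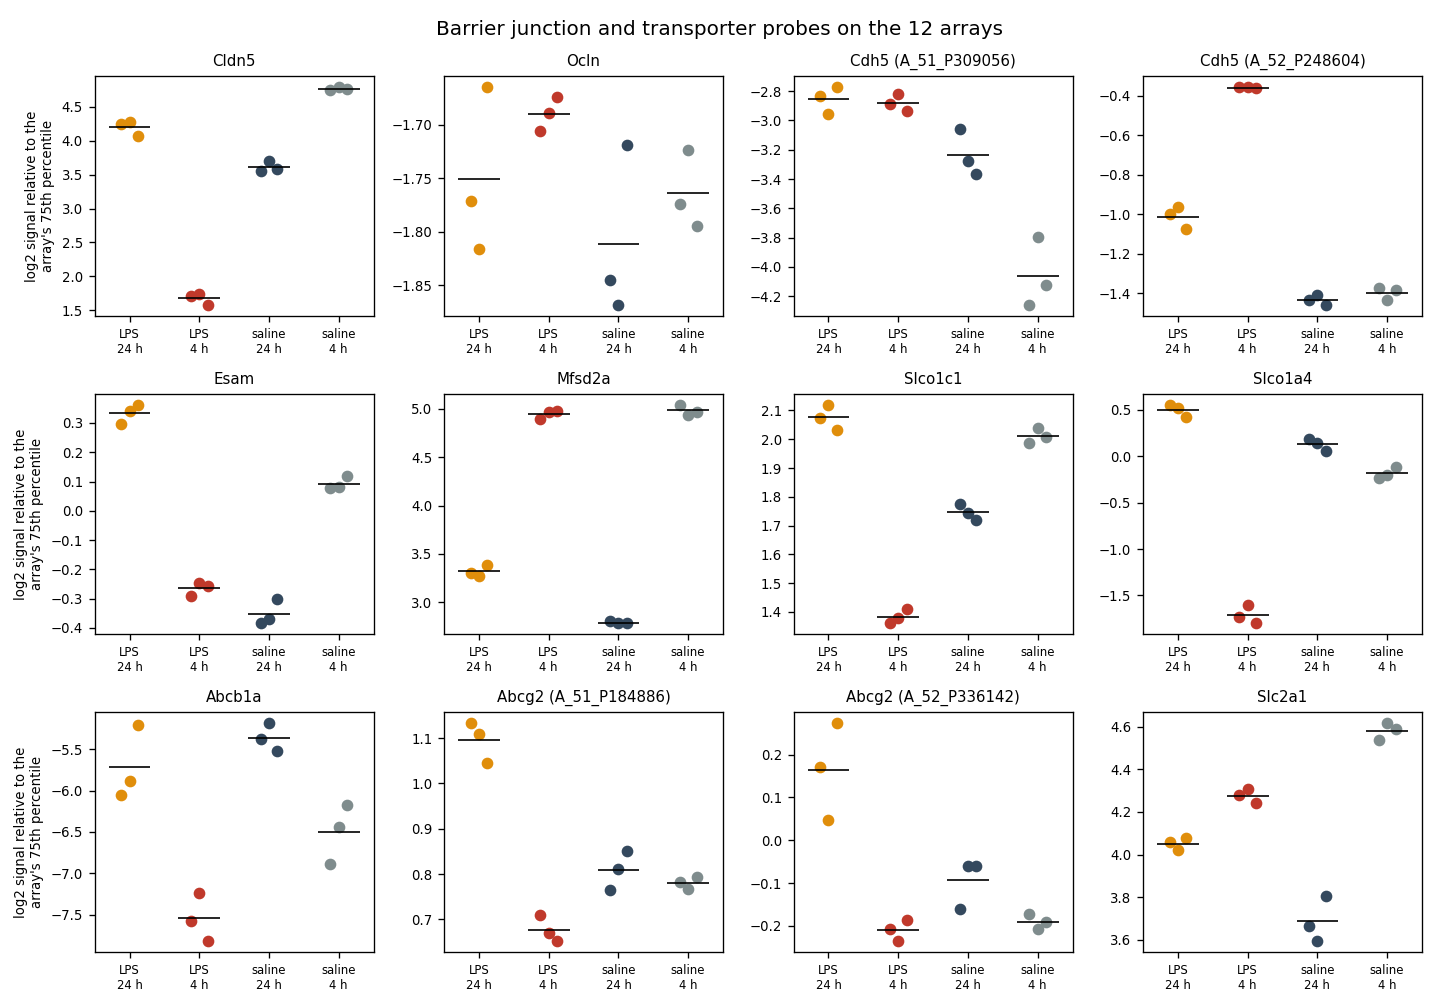
Levels of the 12 barrier probes on each of the 12 arrays. The y axis of each panel, with its own range, is the log2 signal relative to the array's 75th percentile; points are arrays, lines are group means of 3, and the groups run from LPS 24 h and LPS 4 h to saline 24 h and saline 4 h. In the Cldn5 panel LPS 4 h lies below every other array, and in the Mfsd2a panel the 4 h arrays of both treatments lie above all 24 h arrays.

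Cdh5 went the other way. Its brighter probe, A_52_P248604, read -0.36 on each of the 3 LPS 4 h arrays, against -1.37, -1.44 and -1.38 in saline 4 h. The groups did not overlap, with a difference of 1.04 ± 0.04 (adjusted p = 5.32e-09) that was 1.08 ± 0.04 against saline 24 h (adjusted p = 3.38e-09). The dimmer probe of Cdh5, A_51_P309056, gave 1.18 ± 0.12 (adjusted p = 8.50e-06), but with normexp background correction that value was 0.27 (adjusted p = 0.202), and against saline 24 h it was 0.36 ± 0.12 (adjusted p = 0.0209). VE-cadherin RNA was thus higher at 4 h by the brighter probe against both saline groups.

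Esam had levels of -0.29, -0.25 and -0.26 in LPS 4 h and of 0.08, 0.08 and 0.12 in saline 4 h. The groups did not overlap (difference -0.36 ± 0.03, adjusted p = 4.48e-06), yet against saline 24 h the sign turned to 0.09 ± 0.03 (adjusted p = 0.036). That Esam value was -0.0075 (adjusted p = 0.856) with scaling over probes above background on all arrays and -0.00059 (adjusted p = 0.993) in the deposited matrix, and it did not pass with median scaling (adjusted p = 0.0533), with normexp (adjusted p = 0.629) or in 4 of the fits that left out 1 array (adjusted p = 0.0877 to 0.116). The glucose carrier Slc2a1 had levels of 4.28, 4.31 and 4.24 in LPS 4 h and of 4.54, 4.62 and 4.59 in saline 4 h. Its difference was -0.31 ± 0.05 (adjusted p = 0.000376), but it was 0.03 (adjusted p = 0.64) with quantile normalization, 0.01 (adjusted p = 0.932) in the deposited matrix and 0.59 ± 0.05 (adjusted p = 3.53e-06) against saline 24 h. For Esam and Slc2a1 the direction at 4 h therefore depended on the choice of saline arrays, and scaling also turned the sign for Slc2a1 against saline 4 h and for Esam against saline 24 h.

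Mfsd2a had levels of 4.90, 4.96 and 4.98 in LPS 4 h, which overlapped the 5.04, 4.94 and 4.97 of saline 4 h. The difference was -0.04 ± 0.04 (adjusted p = 0.435), though quantile normalization gave 0.33 (adjusted p = 3.92e-05), the deposited matrix 0.33 (adjusted p = 0.000102) and median scaling -0.20 (adjusted p = 0.00435). Against saline 24 h Mfsd2a was higher in LPS 4 h by 2.16 ± 0.04 (adjusted p = 9.35e-11). Ocln levels were -1.71, -1.69 and -1.67 in LPS 4 h and -1.77, -1.72 and -1.79 in saline 4 h, which did not overlap but differed by only 0.07 ± 0.05 (adjusted p = 0.207). Scaling to the 75th percentile over probes above background on all arrays raised the Ocln value to 0.18 (adjusted p = 0.0103), and against saline 24 h it was 0.12 ± 0.05 (adjusted p = 0.0512). The fall of Abcg2 by its probe A_51_P184886 was small, -0.10 ± 0.03 (adjusted p = 0.0227), and it no longer passed in 4 of the fits that left out 1 array (adjusted p = 0.0512 to 0.077). It did not pass with slide as a block either (adjusted p = 0.0777), and scaling over probes above background on all arrays turned it to 0.0054. The other Abcg2 probe, A_52_P336142, gave -0.02 ± 0.05 (adjusted p = 0.752). Against saline 24 h the Abcg2 probes gave -0.13 ± 0.03 (adjusted p = 0.00703) for A_51_P184886 and -0.12 ± 0.05 (adjusted p = 0.0781) for A_52_P336142. Abcb1a was below background on all 6 arrays at 4 h, so no fold is given there.

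Other genes of brain endothelium moved at the same time. Of 25 further pan-endothelial markers, 18 were lower 4 h after LPS and 6 higher, with a median of -0.50, against -0.08 over all probes. Of all probes, 31.6% were higher and 39.4% lower (71% in all). Genes of the endothelial lists named with values are among those with the smallest adjusted p of their list, whichever way they went, unless said otherwise. The vascular endothelial growth factor receptor Kdr differed by -1.86 ± 0.03 (adjusted p = 1.09e-10) and the angiopoietin receptor Tek by -2.52 ± 0.06 (adjusted p = 5.71e-10), although 1 of 2 Tek probes did not pass. Itm2a fell by 1.45 and the secreted Egfl7 by 1.05 on the log2 scale. These 4 genes were lower against saline 24 h too, with Kdr at -1.62, Tek at -2.29, Itm2a at -0.78 and Egfl7 at -0.95. The summed signal of the 25 markers, in multiples of the 75th percentile, was 86.8 to 88.9 in LPS 4 h and 135 to 138 in saline 4 h. It was 68.5 to 69.6 in saline 24 h, so that LPS 4 h lay below 1 saline group and above the other, with 15 markers lower and 9 higher against saline 24 h. Of all probes, 35.5% were higher and 35.4% lower in that comparison (70.8% in all).

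Among 25 other junction and adhesion genes, 13 were lower and 4 higher at 4 h, with a median of -0.19, a smaller share called than the 71% of all probes. The 13 include Cgn, which was below background on every array of both 4 h groups. Unlike the barrier count, the list counts and medians at 4 h keep such genes. The others are Slc19a3 among the transporters and Flt4 and Clec14a among the pan-endothelial markers. The endothelial phosphatase Ptprb, which acts on VE-cadherin, fell by 2.48, Lsr of the tricellular junction by 1.72 and the claudin Cldn3 by 0.79 on the log2 scale. N-cadherin (Cdh2), which neurons and other brain cells also make, was higher by 3.02 ± 0.06 (adjusted p = 2.46e-10), but by only 0.38 ± 0.06 (adjusted p = 0.000204) against saline 24 h. Ptprb, Lsr and Cldn3 were lower against saline 24 h as well, at -1.78, -0.35 and -0.42. Of 32 other transporters and receptors of brain endothelium, 19 were lower and 9 higher, with a median of -0.28, where 31.6% of all probes were higher and 39.4% lower. The riboflavin transporter Slc52a3 fell by 2.54, the iron exporter Slc40a1 by 1.62 and the organic anion carrier Slco2b1 by 0.87, while the 2 probes of the taurine carrier Slc6a6 were called in opposite directions. Against saline 24 h Slc52a3 was at -1.27 and Slc40a1 at -0.67, while Slco2b1 turned to 0.83 ± 0.04 (adjusted p = 8.32e-08). These lists were mixed against saline 24 h, with 8 lower and 10 higher junction genes and 13 lower and 12 higher transporters. There 35.5% of all probes were higher and 35.4% lower (70.8% in all).

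Of 28 measured WNT components and transcription factors of the barrier, 17 were lower and 9 higher, with a median of -0.47. The shares of all probes were 31.6% higher and 39.4% lower (71% in all) at 4 h, and 35.5% higher and 35.4% lower (70.8% in all) against saline 24 h. Sox17 and Sox18, transcription factors of endothelial identity, fell by 3.64 and 2.52 on the log2 scale. The WNT-induced Apcdd1 fell by 1.41 by its brighter probe, and Foxf2, a factor of brain vessels, by 1.26. The WNT target Axin2 did not pass the filter on background. Against saline 24 h, 10 genes of this list were lower and 11 higher: Sox17 and Sox18 were again lower, at -2.05 and -2.73, but Foxf2 turned to 0.46 ± 0.03 (adjusted p = 5.80e-07) and Apcdd1 was at -0.04 (adjusted p = 0.264). Genes of caveolae, fenestrae and transcytosis were split, with 4 of 10 higher and 6 lower: Cav2 was higher by 2.14 ± 0.04 (adjusted p = 1.72e-10) and the fenestral protein Plvap by 0.75 ± 0.07 (adjusted p = 5.17e-06), while the caveolar coat genes Cavin3 and Cavin1 fell by 0.88 and 0.72. The median of the caveolae list, -0.14, turned to 0.05 under another scaling, and against saline 24 h 7 of these genes were higher and 3 lower. There Cav2 was higher by only 0.20 ± 0.04, Plvap turned to -0.57 ± 0.07, and Cavin3 and Cavin1 turned to 0.57 ± 0.05 and 0.19 ± 0.05. Ctnnb1 and Pecam1 each stand in 2 of these lists.

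Markers of other cell types also differed at 4 h, in both directions, where 31.6% of all probes were higher and 39.4% lower (71% in all). The summed signal of 5 red blood cell markers was 122 to 127 in LPS 4 h and 297 to 307 in saline 4 h, with 4 lower and 0 higher. Astrocyte markers summed to 514 to 534 in LPS 4 h and 706 to 718 in saline 4 h (7 of 13 lower, 4 higher), and microglial markers to 149 to 157 in LPS 4 h and 202 to 210 in saline 4 h (6 of 8 lower, 1 higher). Choroid plexus markers summed to 106 to 109 in LPS 4 h and 117 to 125 in saline 4 h (5 of 10 lower, 3 higher), and pericyte markers to 24.8 to 25.2 in LPS 4 h and 27.2 to 27.9 in saline 4 h (3 of 9 lower, 3 higher). Among the other lists, 5 of 9 neuronal markers were higher and 2 lower, 1 of 7 oligodendrocyte markers was higher and 5 lower, and 3 of 6 smooth muscle markers were higher and 2 lower. Meningeal fibroblast markers were higher for 5 of 8 and lower for 3, and 4 of 6 anterior pituitary markers were lower and 0 higher. Several of these directions turned with the saline group. Against saline 24 h, 35.5% of all probes were higher and 35.4% lower (70.8% in all). Against saline 24 h, whose astrocyte sums were 364 to 367 and microglial sums 71.3 to 76.7, LPS 4 h was above it, with 10 astrocyte markers higher and 1 lower and 6 microglial markers higher and 1 lower. In the same comparison 5 oligodendrocyte markers were higher and 2 lower, 5 pericyte markers higher and 1 lower, 2 neuronal markers higher and 5 lower, and 3 choroid plexus markers higher and 3 lower. There 0 red blood cell markers were higher and 3 lower, 2 smooth muscle markers higher and 3 lower, 2 meningeal markers higher and 2 lower, and 1 pituitary marker higher and 4 lower. Scaling mattered too at 4 h against saline 4 h: with quantile normalization 6 astrocyte markers were higher and 4 lower, and the oligodendrocyte median of -0.25 turned to 0.24 (4 higher, 3 lower), and to 0.27 in the deposited matrix (4 higher, 2 lower). The part of these shifts in the barrier results was not tested. Of the defining markers, Slc4a1 of red blood cells, Des of smooth muscle and Tshb of pituitary were below background on all saline 4 h arrays. Gh and Cga of pituitary and the endothelial Myct1 were below background on all LPS 4 h arrays. The endothelial Flt4 and Clec14a were below it on every array of both 4 h groups, and Flt4 also on every saline 24 h array.

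**Figure D2:**
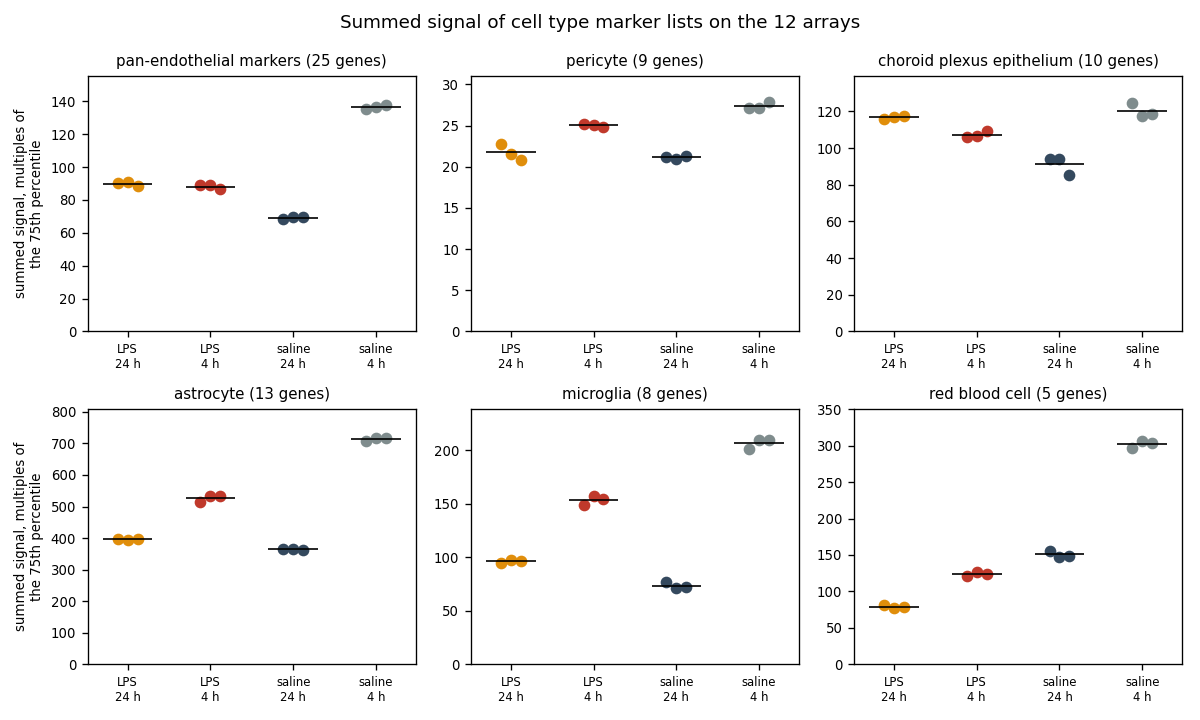
Summed signal of 6 marker lists on each array. The y axis, from 0, is the sum of the genes' signals in multiples of the array's 75th percentile; points are arrays and lines are group means of 3, in the order LPS 24 h, LPS 4 h, saline 24 h and saline 4 h. In the endothelial panel the saline 4 h arrays, at 135 to 138, lie above all others.

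The second comparison asks how the same genes stood 24 h after LPS. Most barrier genes were then higher than in saline, by 1.20- to 1.61-fold. Esam was highest in fold, followed by Cldn5 and Mfsd2a, and the carriers Slco1a4, Slc2a1, Slco1c1 and Abcg2 rose by less. Of 12 probes, 10 were higher and 0 lower, where 20.8% of all probes were higher and 20.9% lower (41.7% in all). None of the 10 reached a 2-fold difference. The median log2 difference was 0.37 over the 12 probes and 0.00 over all probes tested.

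Esam had levels of 0.30, 0.34 and 0.36 in LPS 24 h, against -0.38, -0.37 and -0.30 in saline 24 h. The groups were clearly apart, with a difference of 0.68 ± 0.03 (log2, SE, adjusted p = 2.49e-07 in limma). Cldn5 had levels of 4.24, 4.28 and 4.07 in LPS 24 h and of 3.55, 3.71 and 3.58 in saline 24 h. Every LPS array was above every saline array, by 0.59 ± 0.07 (adjusted p = 9.12e-05). The brighter Cdh5 probe ran from -1.08 to -0.96 in LPS 24 h and from -1.46 to -1.41 in saline 24 h, again without overlap (0.42 ± 0.04, adjusted p = 1.17e-05). The dimmer Cdh5 probe gave 0.38 ± 0.12 (adjusted p = 0.0266), which no longer passed in 4 fits without 1 array (adjusted p = 0.0682 to 0.0929) or with normexp background correction (adjusted p = 0.507). Ocln was at -1.77, -1.82 and -1.66 in LPS 24 h and at -1.85, -1.87 and -1.72 in saline 24 h, which overlapped (0.06 ± 0.05, adjusted p = 0.372).

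Mfsd2a had levels of 3.30, 3.27 and 3.38 in LPS 24 h, against 2.80, 2.78 and 2.78 in saline 24 h. The groups did not overlap, and the difference was 0.53 ± 0.04 (adjusted p = 6.08e-06). Slc2a1 had levels of 4.06, 4.02 and 4.08 in LPS 24 h and of 3.66, 3.59 and 3.81 in saline 24 h (0.36 ± 0.05, adjusted p = 0.000375). Slco1a4 had levels of 0.55, 0.52 and 0.42 in LPS 24 h and of 0.18, 0.15 and 0.05 in saline 24 h (0.37 ± 0.06, adjusted p = 0.000977), and Slco1c1 2.08, 2.12 and 2.03 in LPS 24 h and 1.77, 1.74 and 1.72 in saline 24 h (0.33 ± 0.03, adjusted p = 3.50e-05). None of these groups overlapped. With normexp background correction the Slco1a4 value was 0.35 but did not pass (adjusted p = 0.0591).

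The efflux pumps differed from each other in what could be read. The Abcg2 probe A_51_P184886 had levels of 1.13, 1.11 and 1.04 in LPS 24 h and of 0.76, 0.81 and 0.85 in saline 24 h, without overlap (0.29 ± 0.03, adjusted p = 0.00014). The other, A_52_P336142, had levels of 0.17, 0.05 and 0.27 in LPS 24 h and of -0.16, -0.06 and -0.06 in saline 24 h (0.26 ± 0.05, adjusted p = 0.00394). Both Abcg2 sequences thus gave differences of like size, though the second did not pass with median scaling (0.16, adjusted p = 0.0785). Abcb1a was dim, at -6.05, -5.88 and -5.20 in LPS 24 h and -5.37, -5.18 and -5.52 in saline 24 h. These overlapped (-0.35 ± 0.25, adjusted p = 0.302), and the SE was the largest among the 12 probes.

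**Figure D3:**
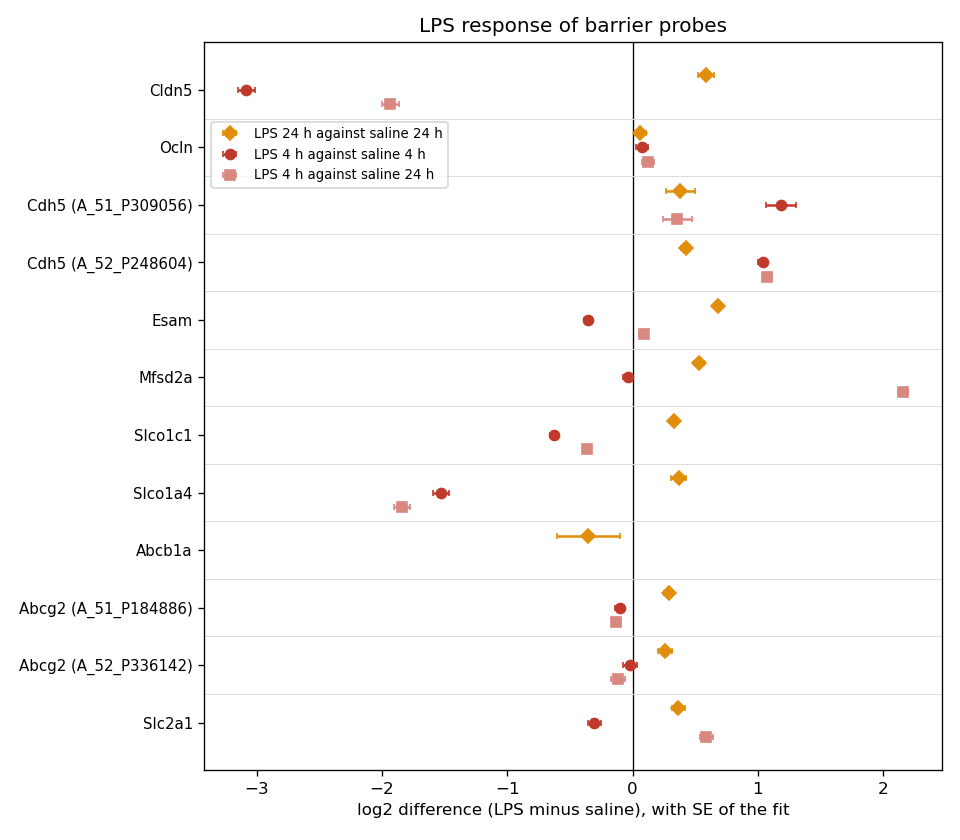
LPS response of the 12 barrier probes. The x axis is the log2 difference, LPS minus saline, with the SE of the fit as bars; diamonds are LPS 24 h against saline 24 h, circles LPS 4 h against saline 4 h and squares LPS 4 h against saline 24 h, and Abcb1a has no 4 h marker because it was below background at 4 h. Cldn5, Slco1a4 and Slco1c1 lie left of 0 in both 4 h comparisons and right of it at 24 h, while Esam and Slc2a1 change side with the saline group. Mfsd2a at 4 h lies near 0 against saline 4 h and far right of it against saline 24 h.

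In the lists of endothelial genes outside the barrier set, more were higher than lower at 24 h against saline 24 h. Of the 25 pan-endothelial markers, 21 were higher and 1 lower, with a median of 0.55 against 0.00 over all probes. Of all probes, 20.8% were higher and 20.9% lower (41.7% in all). Ly6a was higher by 1.66 ± 0.03 (adjusted p = 8.56e-10), the surface receptor Cd93 by 1.36 ± 0.04 (adjusted p = 1.14e-08), Ly6c1 by 1.18 ± 0.04 and the extracellular Mmrn2 by 1.09 ± 0.04. Their summed signal was 88.6 to 91.0 in LPS 24 h and 68.5 to 69.6 in saline 24 h. Of 25 junction and adhesion genes, 13 were higher and 4 lower (median 0.28): Lsr was higher by 0.82 ± 0.03, Cldn3 by 0.63 ± 0.04, the platelet-endothelial adhesion molecule Pecam1 by 0.86 ± 0.06 and the leukocyte ligand Icam2 by 0.81 ± 0.06. The lower genes had larger adjusted p than these. Among them were Tjp1 by 1 of its 2 probes (-0.15 ± 0.04, adjusted p = 0.0166) and Cldn12 (-0.24 ± 0.04, adjusted p = 0.00184). Genes called lower at 4 h and higher at 24 h, each against saline of the same time, included Lsr, Cldn3, Pecam1, Slc52a3, Cavin1 and Foxf2. Among the barrier genes Cldn5, Slco1a4, Slco1c1, Esam, Slc2a1 and the Abcg2 probe A_51_P184886 were called so too.

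Of the 32 other transporters and receptors, 12 were higher and 6 lower at 24 h (median 0.13), and with median scaling 7 were higher and 7 lower. At 24 h 20.8% of all probes were higher and 20.9% lower (41.7% in all), so the share of transporters called lower was near that of all probes. Slc52a3 was higher by 1.07 ± 0.05, the amino acid carrier Slc38a5 by 0.77 ± 0.04, the scaffold Slc9a3r2 by 0.56 ± 0.03 and the Fc receptor Fcgrt by 0.47 ± 0.04. Of 10 caveolae and transcytosis genes, 7 were higher and 0 lower (median 0.28), among them Cav1 by 0.42 ± 0.03, Cavin1 by 0.55 ± 0.05, Ehd4 by 0.57 ± 0.03 and Ehd2 by 0.82 ± 0.10. Of 28 WNT components and factors, 16 were higher and 4 lower (median 0.16), though with median scaling 6 were higher and 6 lower and with normexp 6 higher and 1 lower. The WNT co-receptor Lrp5 was higher by 0.53 ± 0.07, the ETS factor Fli1 by 0.49 ± 0.04 and Foxf2 by 0.21 ± 0.03. Against saline 4 h, LPS 24 h had 15 pan-endothelial markers higher and 8 lower, and 12 junction genes higher and 10 lower. There 12 transporters were higher and 16 lower, 9 WNT genes higher and 14 lower, and 5 caveolae genes higher and 5 lower. Of all probes, 39.9% were higher and 40% lower in that comparison. Mean levels in LPS 24 h were below saline 4 h for Lsr (2.87 against 3.41) and Slc52a3 (0.22 against 0.41). The same held for Cavin1 (4.06 against 4.42) and Foxf2 (0.09 against 1.60). They were above it for Cldn3 (-1.27 against -1.52) and Pecam1 (-1.93 against -2.85). The other genes named at 24 h are not set against saline 4 h here.

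**Figure D4:**
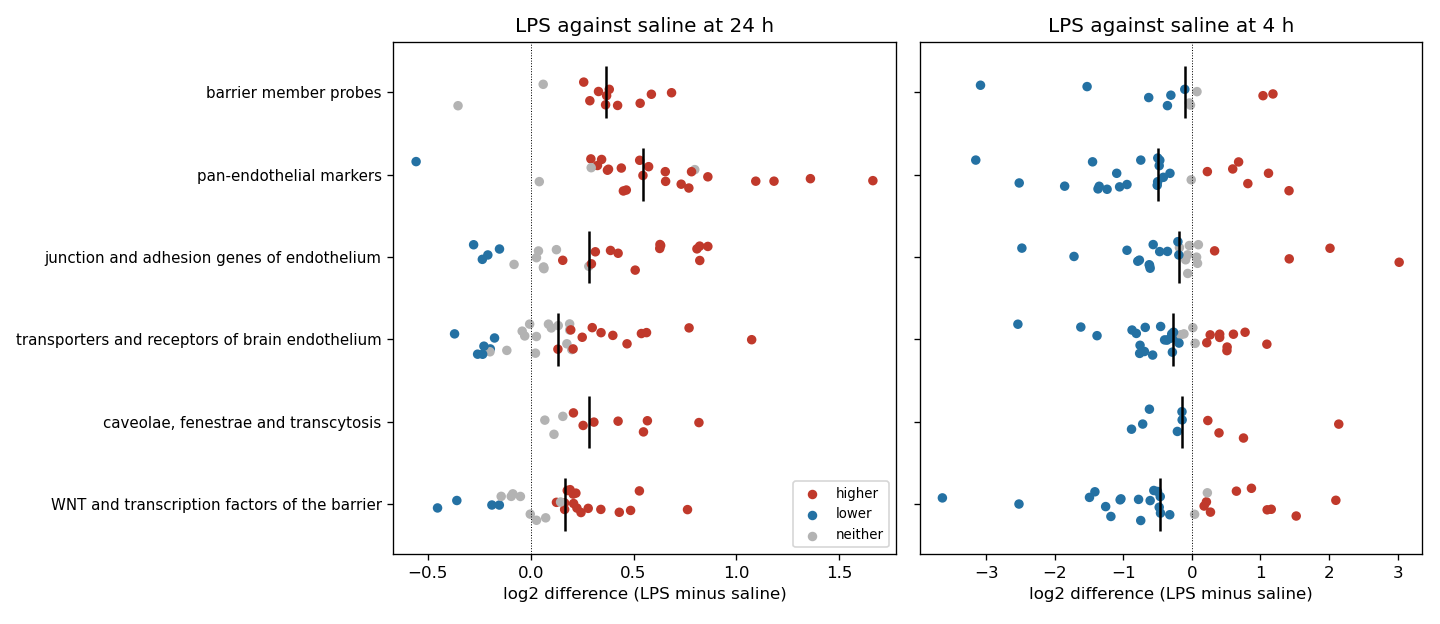
Log2 differences of the barrier probes and of 5 lists of related genes. The x axis of each panel is LPS minus saline, with 24 h on the left and 4 h on the right and separate ranges; each point is a probe (barrier set) or a gene by its brightest probe (lists), red higher, blue lower and grey neither at an adjusted p under 0.05, and black lines are medians. At 24 h the medians of the barrier probes and pan-endothelial markers are 0.37 and 0.55, and at 4 h they are -0.10 and -0.50. The 4 h panel leaves out Abcb1a but keeps list genes that were below background.

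Markers of other cell types differed at 24 h as well, where 20.8% of all probes were higher and 20.9% lower (41.7% in all). Choroid plexus markers summed to 116 to 117 in LPS 24 h and 85.4 to 94.1 in saline 24 h (8 of 10 higher, 0 lower), and microglial markers to 94.5 to 97.4 in LPS 24 h and 71.3 to 76.7 in saline 24 h (7 of 8 higher, 1 lower). Astrocyte markers summed to 396 to 398 in LPS 24 h and 364 to 367 in saline 24 h (8 of 13 higher, 2 lower), and 6 of 9 pericyte markers were higher and 0 lower, with sums of 20.9 to 22.8 in LPS 24 h and 20.9 to 21.3 in saline 24 h. Red blood cell markers summed to 78.0 to 80.9 in LPS 24 h and 148 to 156 in saline 24 h (4 of 5 lower, 0 higher). Neuronal markers were lower for 5 of 9 and oligodendrocyte markers for 2 of 7, with 0 higher in either list, and 4 of 6 smooth muscle markers were higher and 1 lower. Of 8 meningeal fibroblast markers 2 were higher and 3 lower, and of 6 anterior pituitary markers 0 were higher and 2 lower. With median scaling the astrocyte list was 4 higher and 3 lower and the pericyte list 2 higher and 1 lower, and with normexp 2 higher and 1 lower and 2 higher and 0 lower. Against saline 4 h, where 39.9% of all probes were higher and 40% lower, LPS 24 h had 4 astrocyte markers higher and 8 lower. In that comparison 1 microglial marker was higher and 6 lower, and 3 pericyte markers were higher and 5 lower. There 6 choroid plexus markers were higher and 2 lower, 5 neuronal higher and 3 lower, and 1 oligodendrocyte marker higher and 6 lower. Smooth muscle had 4 higher and 2 lower, meningeal fibroblasts 4 and 3, red blood cells 0 and 4, and pituitary 0 and 4. The part of these markers in the barrier results was not tested.

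The difference between the responses was tested in the same fit. Of the 11 probes measurable at both times, 8 had a higher LPS response at 24 h than at 4 h and 2, both of Cdh5, a lower one, where 37.6% of all probes had a higher and 28.3% a lower one (65.9% in all). Cldn5 showed 3.67 ± 0.09 (log2, adjusted p = 3.30e-09), Slco1a4 1.90 ± 0.09 (adjusted p = 5.94e-08), Esam 1.04 ± 0.05 (adjusted p = 5.16e-08) and Slco1c1 0.96 ± 0.05 (adjusted p = 7.96e-08). Slc2a1 differed by 0.67 ± 0.07, Mfsd2a by 0.57 ± 0.06, and Abcg2 by 0.39 ± 0.05 and 0.28 ± 0.08. The brighter Cdh5 probe gave -0.62 ± 0.05 (adjusted p = 2.74e-06), a smaller rise at 24 h than at 4 h, and Ocln -0.01 ± 0.07 (adjusted p = 0.874). The dimmer Cdh5 probe gave -0.80 (adjusted p = 0.00187), but -0.07 (adjusted p = 0.859) with normexp, and the second Abcg2 value was 0.18 (adjusted p = 0.0623) with scaling over probes above background on all arrays. These values contain both saline groups, which themselves differed.

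Saline 24 h against saline 4 h gives the size of that baseline difference. Mfsd2a was much lower in saline 24 h, at -2.20 ± 0.04 (adjusted p = 4.38e-11), a larger difference than LPS made to Mfsd2a within either time. Cldn5 was at -1.15 ± 0.07 (adjusted p = 7.74e-08), Slc2a1 at -0.89 ± 0.05 (adjusted p = 7.28e-08), Esam at -0.44 ± 0.03 and Slco1c1 at -0.27 ± 0.03. Slco1a4, at 0.31 ± 0.06 (adjusted p = 0.000855), and the dimmer Cdh5 probe, at 0.83 ± 0.12, were higher in saline 24 h, the Cdh5 value turning to -0.26 (adjusted p = 0.144) with normexp. The Slco1c1 value did not pass with normexp (adjusted p = 0.0623), scaling over probes above background on all arrays (adjusted p = 0.0995), quantile normalization (adjusted p = 0.117) or the deposited matrix (adjusted p = 0.479), nor that of Slco1a4 with normexp (adjusted p = 0.0575) or median scaling (adjusted p = 0.0553). In all, 2 of 11 probes were higher and 5 lower, where 38% of all probes were higher and 41.5% lower (79.5% in all). Time after injection and scan session cannot be told apart in this difference.

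Set against saline 24 h, the LPS 4 h arrays had 5 of 11 probes higher and 4 lower, where 35.5% of all probes were higher and 35.4% lower (70.8% in all). Mfsd2a was then 2.16 ± 0.04 higher (adjusted p = 9.35e-11), in contrast to the -0.04 against saline of its own time. For Cldn5, Slco1a4, Slco1c1 and the brighter Cdh5 probe the direction was the same against both saline groups. LPS 24 h against saline 4 h turned Cldn5 to -0.56 ± 0.07 (adjusted p = 2.21e-05), Slc2a1 to -0.53 ± 0.05 and Mfsd2a to -1.67 ± 0.04, whereas Esam, both Cdh5 probes, Slco1a4 and both Abcg2 probes were still higher, in a comparison that called 39.9% of all probes higher and 40% lower (79.9% in all). On single slides, which pair an LPS with a saline array of the same time, the Cldn5 difference ran from 0.50 to 0.69 at 24 h and from -3.17 to -3.01 at 4 h, and that of Slco1a4 from 0.36 to 0.37 at 24 h and from -1.57 to -1.49 at 4 h.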

How the data were processed

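Hippocampal RNA of 12 samples was hybridised to one-colour Agilent arrays. The deposited files hold the intensity of 45018 spots per array, background-corrected by Agilent Feature Extraction 10.7.3.1 per the file headers (the submitters' processing notes name version 9.1). The deposited matrix holds log2 values; normexp correction (offset 50) of the deposited mean intensities, quantile normalization and log2 gave the same values to within 4.5e-10.

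Processed intensities of 43379 transcript spots were taken as log2, 926 spots flagged as outliers were left out, repeated spots averaged and each array's 75th percentile subtracted. Groups were read from the sample labels. The limma package (3.58.1, under R 4.3.3) fitted the 4 group means in 1 model with empirical Bayes moderation, Benjamini-Hochberg adjustment over 27683 probes and a two-sided threshold of 0.05. An adjusted p is from this fit unless another setting is named with it. Those given with another background correction, scaling, block or left-out array, or for the deposited matrix, are from separate limma fits with their own adjustment. The fit was tested on simulated data. A gene with several probes is led by its brightest. From each related list, up to 4 genes with the smallest adjusted p per LPS comparison are named. At 24 h Tjp1 and Cldn12 are named besides. Some genes of these lists are not reported here. Probes were named through RefSeq by accession (27471), symbol (5484) or synonym (688), and 7531 kept the files' name. The members and lists were chosen with earlier results of these data known. Background correction, scaling, filter, probe rule, fit, blocks, thresholds, control arrays and leaving out each array were varied. The number of arrays, 3 a group, limits the precision.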

Additional observations from a re-analysis of the deposited data

Results flagged for a closer look

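The LPS response differed between the times, by the test of the difference itself (24 h minus 4 h, log2, limma), at 10 of the 11 barrier probes measurable at both times. The difference was 3.67 for the tight junction gene Cldn5, 1.90 for Slco1a4, 1.04 for Esam, 0.96 for Slco1c1, 0.67 for Slc2a1 and 0.57 for Mfsd2a. It was 0.39 and 0.28 for the 2 probes of Abcg2, and -0.62 and -0.80 for the 2 probes of Cdh5. With normexp background correction the -0.80 was -0.07 and did not pass (adjusted p = 0.859), and with scaling over probes above background on all arrays the 0.28 of Abcg2 was 0.18 and did not pass (adjusted p = 0.0623). Of all probes tested, 65.9% passed the same test, and the saline groups that enter it were scanned in separate sessions.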

How the results depend on the processing

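Across 12 fits that each left out 1 array, the barrier probes called at 24 h stayed at 9 to 10 higher and 0 lower, and those at 4 h at 2 higher and 5 to 6 lower. LPS 4 h against saline 24 h ranged from 3 to 6 higher, with 3 without LPS 4 h replicate 2 or saline 24 h replicate 2. Deviations of same-numbered samples correlated at -0.15 to 0.17 at 4 h, where other pairs of an LPS and a saline sample ran from -0.30 to 0.25. At 24 h same-numbered samples shared a slide. They correlated at 0.03 to 0.08 there, and other pairs at -0.06 to 0.01. With replicate number as a replicate block, the 4 h fall of Abcg2 (A_51_P184886) was -0.10 with an adjusted p of 0.0855. No other barrier call of the LPS comparisons changed with that block. With normexp background correction 43.3% of all probes passed at 4 h, 14.8% at 24 h and 36.7% for the difference of responses; barrier counts were 1 higher at 4 h, 1 lower for the difference and 0 higher for saline 24 h against 4 h, where Cdh5 (A_51_P309056) turned to -0.26. Median scaling gave 13.9% higher and 32.5% lower of all probes at 24 h, and 23.9% higher and 49% lower at 4 h, against 20.8% and 20.9%, and 31.6% and 39.4%, in the report; between saline groups it gave 1 higher and 8 lower, with Abcg2 (A_51_P184886) at -0.16. The median of all probes at 4 h was -0.25 with it and -0.08 in the report. Scaling over probes above background on all arrays put Abcg2 (A_51_P184886) at 0.0054 at 4 h, gave 6 higher between saline groups with Cdh5 (A_52_P248604) and Ocln both at 0.16, and 3 higher for LPS 4 h against saline 24 h with Esam at -0.0075. Quantile normalization put Mfsd2a at 0.33 and Slc2a1 at 0.032 at 4 h; the deposited matrix put them at 0.33 and 0.0095, and Esam at -0.00059 for LPS 4 h against saline 24 h. Without a filter 26.2% of all probes passed at 24 h. One probe per gene gave 1 higher at 4 h, 1 lower for the difference and 1 higher between saline groups; the mean of a gene's probes gave 1 higher at 4 h, 1 lower for the difference and Cdh5 at 0.39 between saline groups. A threshold of 0.01 left 3 higher for LPS 4 h against saline 24 h. At 2-fold or more, 0 barrier probes were higher at 24 h (2.9% of all probes called) and 2 lower at 4 h (12.6%); the difference kept 3 higher and 0 lower (17.2%), saline groups 0 higher and 2 lower, and LPS 4 h against saline 24 h 2 higher and 2 lower. With saline of the other time as control, 79.9% of all probes passed for LPS 24 h, with 3 barrier probes lower (Cldn5 -0.56, Mfsd2a -1.67, Slc2a1 -0.53); for LPS 4 h, 5 were higher, with Esam at 0.087, Mfsd2a at 2.16 and Slc2a1 at 0.59. The causes were not tested.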
